A study of Mus musculus with 32 samples.

Results

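Ikaros (IKZF1) binding was compared between uninduced B3 cells and cells induced for 1 h. A region was gained when a peak was called in both 1 h libraries and in neither 0 h library, lost in the reverse case, and kept when all 4 libraries called it. The 4 peak lists held 44670 peaks and merged into 19652 regions, of which 2797 were gained, 688 were lost and 4254 were kept, 7739 in all. The other 11913 regions had another pattern of calls. Merging all 8 IKZF1 lists of the series, which also cover 30 min and 2 h, gave 23856 regions.

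The study followed IKZF1, the chromatin remodeller CHD4 and acetylation of histone H3 at lysine 27 (H3K27ac) by ChIP-seq during the start of induction. B3 is a mouse pre-B cell line that the study describes as derived from a lymphoma. In every group the cells carried an HA-tagged Ikaros-ERt2 construct introduced by retroviral transduction, and 500 nM 4-hydroxytamoxifen, which moves the ERt2 fusion into the nucleus, was given for 30 min, 1 h or 2 h, while the 0 h cells carried the construct and got no 4-hydroxytamoxifen. Each target had 2 libraries per time, with 32 libraries in all, 24 of them with a peak list. The anti-HA beads report the introduced fusion protein and not the cells' own IKZF1, and no library of cells without the construct was used here, so peaks at 0 h cannot be told apart as fusion protein already on chromatin or as background of the anti-HA ChIP. Nothing in the labels says whether the libraries came from separate cultures, so the spread between replicates may be technical.

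IKZF1 is a zinc finger transcription factor needed for lymphocyte development, and its loss or mutation is a known feature of B-cell leukaemia. Its DNA-binding fingers recognise sequences with a GGGAA or GGAA core, which ETS factors of the B lineage can also recognise. IKZF1 recruits the NuRD complex, which joins the remodelling ATPase CHD4 to histone deacetylases that can remove acetyl groups such as H3K27ac, a mark of active promoters and enhancers.

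The reference bases within 50 bp of the summit of the 4 highest-ranked gained, 2 lost and 2 kept regions outside untranslated regions are printed here, since the classes differed in how many core words lie at their summits. Capitals mark the core words GGAA (on the other strand read as TTCC) and GGGA (on the other strand read as TCCC), which may overlap each other, and the bases are those of RefSeq GRCm38 (mm10), plus strand.
gained region near Vti1a, chr19:55544636-55544736: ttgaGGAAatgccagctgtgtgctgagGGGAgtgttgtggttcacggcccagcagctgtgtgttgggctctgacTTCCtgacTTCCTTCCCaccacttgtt
gained region near Foxo3, chr10:42220608-42220708: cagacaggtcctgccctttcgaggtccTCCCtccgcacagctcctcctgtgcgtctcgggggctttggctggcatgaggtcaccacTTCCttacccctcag
gained region near Panx1, chr9:15030090-15030190: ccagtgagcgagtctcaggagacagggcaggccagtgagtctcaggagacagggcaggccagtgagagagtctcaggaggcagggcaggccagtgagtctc
gained region near Snx6, chr12:54737803-54737903: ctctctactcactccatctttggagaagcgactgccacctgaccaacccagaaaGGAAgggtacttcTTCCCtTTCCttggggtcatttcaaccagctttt
lost region near Psap, chr10:60273510-60273610: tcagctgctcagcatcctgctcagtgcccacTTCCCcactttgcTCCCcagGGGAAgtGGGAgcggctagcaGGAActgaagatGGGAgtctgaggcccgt
lost region near Ccdc138, chr10:58544608-58544708: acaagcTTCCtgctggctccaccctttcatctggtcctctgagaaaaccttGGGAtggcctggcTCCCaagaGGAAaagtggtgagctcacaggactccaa
kept region near Cpped1, chr16:11686460-11686560: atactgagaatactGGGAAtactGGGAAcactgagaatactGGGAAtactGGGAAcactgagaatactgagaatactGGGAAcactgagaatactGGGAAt
kept region near Atp13a2, chr4:140983705-140983805: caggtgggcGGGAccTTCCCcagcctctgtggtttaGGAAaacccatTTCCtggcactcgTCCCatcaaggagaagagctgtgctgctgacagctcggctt

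The first gained sequence lay in an intron of Vti1a and held 6 core words, while the second, in an intron of Foxo3, held 2. The third, in an intron of Panx1, was a run of short repeats with 0 core words. The fourth lay over the start of the noncoding gene Gm22317, 21272 bp from the nearest protein-coding start site, that of Snx6, and held 4. The lost sequences held 8 and 4 core words, and the kept sequences held 12 and 6. The kept sequence with 12 words was itself a repeat, so that a single repeated unit accounts for its count.

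The 0 h lists were shorter than the 1 h lists. IKZF1 peaks numbered 7822 and 9527 in replicates 1 and 2 at 0 h, and 12447 and 14874 at 1 h. The mean rose from 8675 ± 1206 to 13661 ± 1716 (SD, n = 2 per time), a difference of 4986 peaks, and the groups did not overlap. These lists define the classes, so the difference is given as a description. The coverage that MACS2 used, read from the fold and p-value of each peak, was 3.40 and 2.70 fragments per base at 0 h and 2.52 and 2.2 at 1 h, so the 0 h libraries had the higher coverage and the shorter lists. Among all 8 IKZF1 libraries the lowest coverage, 1.98, and the shortest list, 5373 peaks, were those of 30 min replicate 2. The part of coverage in list length was not tested. The fold of a peak is its pileup over the local background, and the lists hold called peaks alone, so a region without a call has no measured level.

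The merged regions were 14.2% gained, 3.5% lost and 21.6% kept. All 15 patterns of calls occurred. The gained pattern was the third most frequent, after the kept regions and the 4233 regions called in 1 h replicate 2 alone. A further 1981 regions were called in 1 h replicate 1 alone. The patterns that pair 1 library of each time were less frequent than the gained pattern. They held 169 regions for replicate 1 of both times, 500 for replicate 2 of both times, 193 for 0 h replicate 1 with 1 h replicate 2, and 266 for 0 h replicate 2 with 1 h replicate 1. The lost pattern, with 688 regions, exceeded each of these by less than the gained pattern did. When every list was cut to the 7822 strongest peaks, gained and lost regions came to 1140 and 1234, so the excess of gained over lost regions was not seen in lists of equal length, whereas 2884 regions were still kept.

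**Figure D1:**
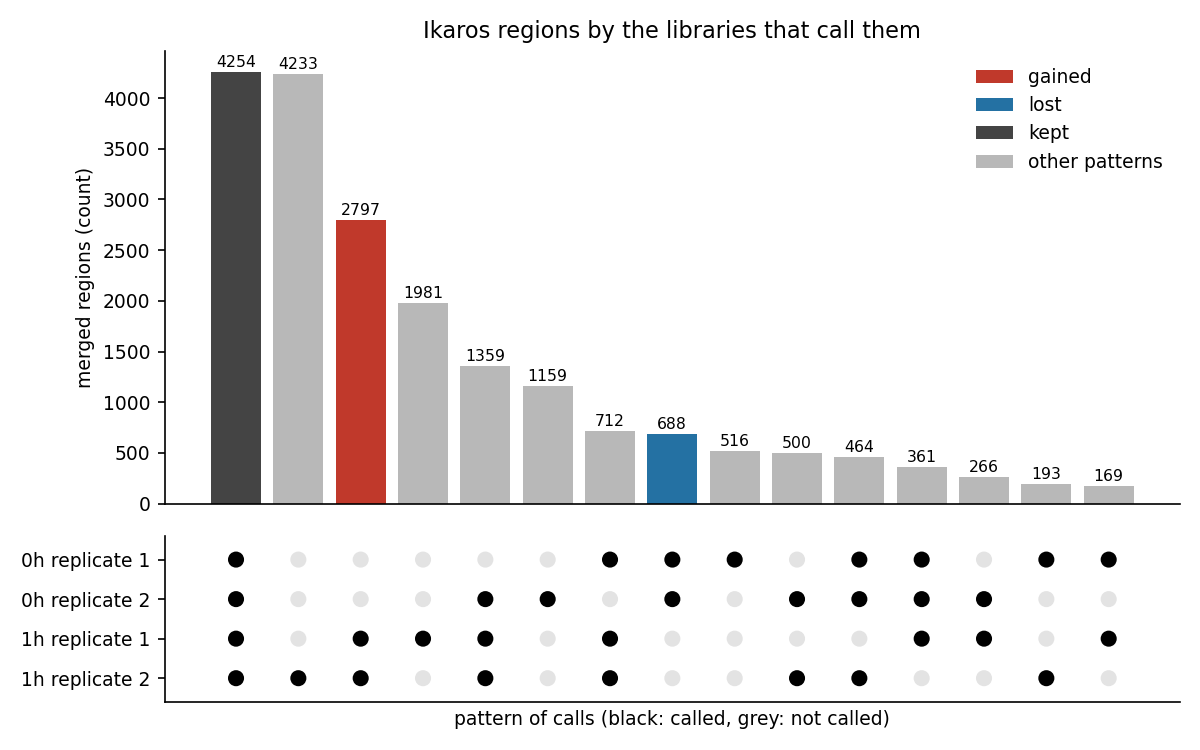
Number of merged IKZF1 regions (bars, count) for each pattern of calls over the 4 libraries (dots below, black where called). Kept regions (4254) and gained regions (2797) are 2 of the 3 tallest bars, and lost regions number 688.

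Gained regions were weaker than kept regions in the libraries that defined them. These values were used by the rule and are given as a description. At 1 h the median fold of gained regions was 4.55 and 4.64 in replicates 1 and 2, against 6.00 and 5.88 at kept regions. Ranked by fold within each list, where 100 is the highest, the median gained region stood at 41.2 and 49.2 and the median kept region at 74.0 and 74.5. Lost regions had a median fold of 4.96 and 5.84 at 0 h, where kept regions had 5.39 and 6.29. The weakest gained regions lay at the calling threshold, with a −log10 q of 1.34 and 1.33 in the 1 h replicates. Just outside the rule, regions called in 1 of the 1 h libraries alone had a median fold of 3.98 in replicate 1 and 4.02 in replicate 2.

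The IKZF1 libraries at 30 min and 2 h were not used by the rule. Of the gained regions, 41.8% and 20.2% had a peak in the 30 min replicates and 68.6% and 74.7% in the 2 h replicates. Over all merged regions the shares were 40.8% and 24.3% at 30 min and 55.1% and 59.2% at 2 h, so gained regions were near or below them at 30 min and above them at 2 h. Lost regions had a peak far less often, 16.4% and 6.83% at 30 min and 12.9% and 15.8% at 2 h. Kept regions were called in 85.6% and 62.1% at 30 min and in 90.2% and 93.1% at 2 h. The order of the 3 classes was the same in all 4 of these libraries. The 30 min lists held 9181 and 5373 peaks, and the shorter list gave the lower share in each class.

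**Figure D2:**
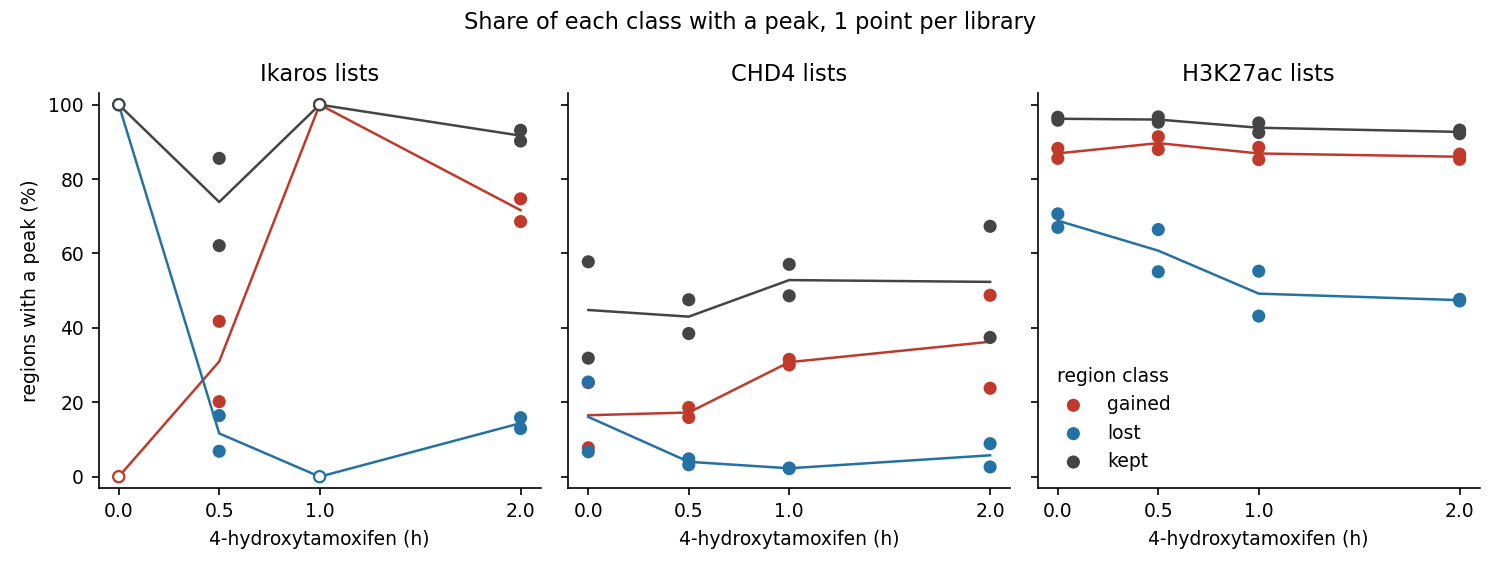
Share of gained, lost and kept regions (%) with an IKZF1, CHD4 or H3K27ac peak, against hours of 4-hydroxytamoxifen, with 1 point per library and lines through the means of 2 libraries. Open points (IKZF1 at 0 h and 1 h) were fixed by the rule. Lost regions with an H3K27ac peak fall from 70.6% and 67.0% at 0 h to 47.7% and 47.2% at 2 h, while gained regions stay between 85.2% and 91.4%.

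Within kept regions the binding at 0 h and 1 h ranked differently. Across the 4254 regions, which are not independent replicates, the log2 fold correlated with r = 0.66 between the 0 h replicates and r = 0.47 between the 1 h replicates, but with r = 0.28 and r = 0.23 between times within replicates 1 and 2. The median log2 ratio of the 1 h fold to the 0 h fold was 0.14 in replicate 1 and −0.10 in replicate 2, so the replicates differed in sign. The summit moved by a median of 78 bp and 91 bp from 0 h to 1 h in replicates 1 and 2, against 52 bp between the 0 h replicates and 86 bp between the 1 h replicates. The shift between times was thus near the spread between the 1 h replicates.

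The classes differed in place and width. A promoter region lay within 1 kb of any annotated start site (TSS), and all others were distal. Promoters made up 55.0% of gained regions (1539 of 2797), 53.6% of kept regions and 24.1% of lost regions (166 of 688), against 48.6% of all merged regions. Lost regions lay in introns in 49.1% of cases and between genes in 39.4%, judged by their midpoints, and gained regions in 41.3% and 35.6%. Regions over 50 kb from any TSS were 5.23% of lost, 2.43% of gained and 2.73% of kept regions. The median width was 676 bp for gained, 483 bp for lost and 1106 bp for kept regions, and a region merged from 4 lists is wider than one merged from 2. In lists of equal length the promoter share of gained regions was 49.4%, close to the 48.6% of all regions in the full lists, and that of lost regions was 27.1%.

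Core words were less frequent at the summits of gained regions than at those of lost and kept regions. Gained summits were taken from the 1 h lists, lost summits from the 0 h lists and kept summits from all 4 lists. Class and the time of the summit thus cannot be told apart here. Within 50 bp of the summit, the core words of both strands together occurred 4.55 times per 100 bp at lost, 4.22 at kept and 2.95 at gained summits, against 3.44 over all regions. After subtracting the flanks 400 to 500 bp away, the density was 2.24 ± 0.0595, 1.83 ± 0.372 and 0.80 ± 0.0508 words per 100 bp, in that order (± SD between the libraries that call the class, with their own summits). The gap between lost and kept summits was near the SD at kept summits, while gained summits lay below both by more than it. Control words of the same base composition, AAGG (on the other strand read as CCTT) and AGGG (on the other strand read as CCCT), stood above their flanks by 0.92, 0.58 and 0.28. The longer word TGGGAA, or TTCCCA on the other strand, which contains 2 core words, lay within 50 bp of the summit in 25.1% of lost (173), 19.0% of kept (807) and 9.19% of gained (257) regions, against 14.8% of all regions. No core word was found in 6.79% of gained, 1.16% of lost and 1.86% of kept windows. Distal regions alone had the same order, with 2.28, 1.75 and 0.71 core words per 100 bp above the flanks at lost, kept and gained summits.

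**Figure D3:**
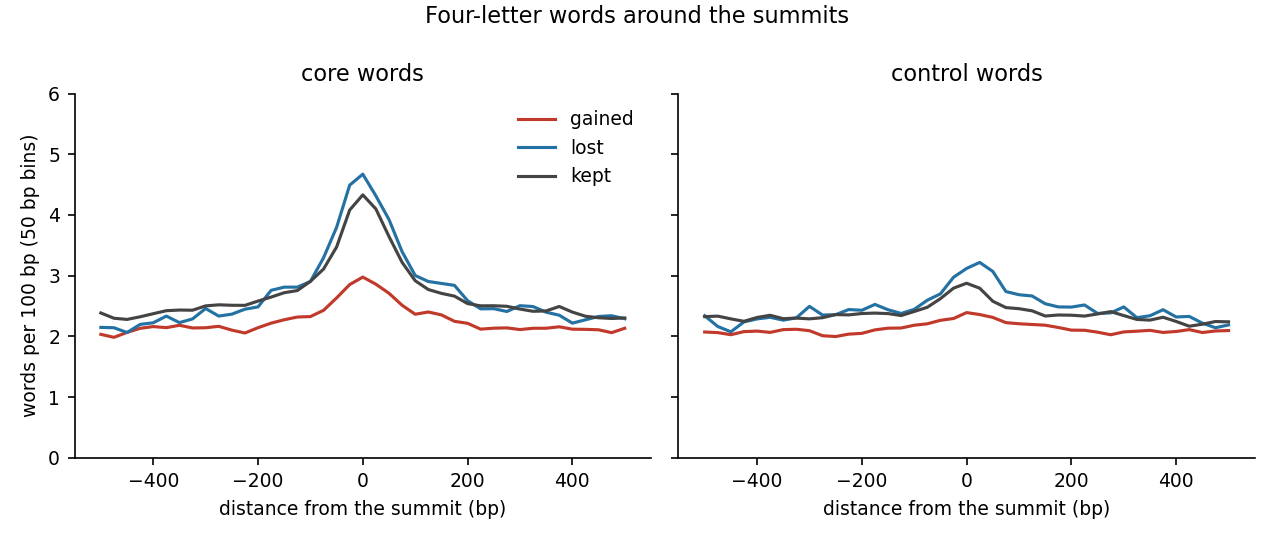
Core words (left) and control words (right) per 100 bp in 50 bp bins, against distance from the summit in bp, for gained, lost and kept regions. The core words peak at the summit in each class, highest for lost and lowest for gained regions, and the control words show a lower peak in the same order.

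CHD4 peaks at gained regions were more frequent at 1 h than at 0 h. The share of gained regions with a CHD4 peak was 7.76% and 25.3% in the 0 h replicates, 18.6% and 15.9% at 30 min, 31.5% and 30.0% at 1 h, and 23.8% and 48.8% at 2 h. The 1 h libraries lay above both 0 h libraries, and the difference in means was 14.3 percentage points (16.5% ± 12.4 against 30.8% ± 1.06, SD, n = 2), with an exact two-sided permutation p = 0.33 (adjusted p = 0.556 over 5 tests), the smallest that 2 libraries against 2 allow. Over all merged regions the share was 12.1% and 29.1% at 0 h and 27% and 24.2% at 1 h, with groups that overlapped. CHD4 lists differed in length, from 2488 peaks in 0 h replicate 1 to 9593 in 2 h replicate 2, and their depth is unknown. Without 0 h replicate 1 the difference was 5.51 points and without 0 h replicate 2 it was 23.0. With CHD4 peaks of a −log10 q of at least 3 it was 4.20 points.

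At kept regions the CHD4 share was 31.9% and 57.8% at 0 h and 57.1% and 48.6% at 1 h, so the groups overlapped. The difference of 8.04 percentage points had an exact permutation p = 1, and it was −4.91 points without 0 h replicate 1.

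Lost regions carried a CHD4 peak less often at 1 h than at 0 h. They carried one in 6.69% and 25.4% of cases in the 0 h replicates and in 2.18% and 2.33% in the 1 h replicates, a difference of −13.8 percentage points that was noticed in the data before it was tested (exact permutation p = 0.33, adjusted p = 0.467 over 7 tests), and −1.45 points with CHD4 peaks of a −log10 q of at least 3. Without 0 h replicate 2 it was −4.43 points, and without 0 h replicate 1 it was −23.2. Region by region, 180 gained regions (6.44%) had a CHD4 peak in both 1 h and neither 0 h list, against 5.31% of kept regions (226) and 3.47% of all IKZF1 regions, while the reverse pattern was found at 8 gained regions (0.286%), against a background of 1.37%. At lost regions the first pattern was found at 2 and the reverse at 26 (3.78%). CHD4 peaks were found in no 0 h or 1 h list at 48.0% of gained and 71.5% of lost regions, against 20.8% of kept regions and 54.0% of all merged regions.

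Gained regions carried a CHD4 peak less often than kept regions in each of the 8 CHD4 libraries. Kept regions were also wider, with a median of 1106 bp against 676 bp, and the part of width in these shares was not tested. The share at gained minus that at kept regions averaged −28.3 ± 5.93 percentage points before induction, −25.8 ± 4.52 after 30 min, −22.1 ± 4.92 after 1 h and −16.1 ± 3.46 after 2 h (± SD of 2 libraries). Over the 8 libraries Spearman's rho with time was 0.78 (exact permutation p = 0.0349, adjusted p = 0.0524 over 3 trends) and Pearson's r was 0.80 (exact permutation p = 0.0167, adjusted p = 0.05), and r was 0.57 without the 2 libraries farthest from the median time, which are both 2 h libraries. The trend thus missed an adjusted threshold of 0.05 by rho. It passed with CHD4 lists of equal length (rho = 0.98, exact permutation p = 0.000794, adjusted p = 0.00238) and without CHD4 0 h replicate 1 or 1 h replicate 1 (rho = 0.90 in each), and rho was 0.54 with a −log10 q of at least 3 (adjusted p = 0.19 by the exact permutation test). The share at gained regions alone had rho = 0.63 with time (exact permutation p = 0.11, adjusted p = 0.11) and r = 0.70 (p = 0.0512, adjusted p = 0.0512, exact permutation), and r = 0.70 without the 2 farthest libraries.

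H3K27ac was present at most gained regions before induction, as it was at most IKZF1 regions. Gained regions carried an H3K27ac peak in 88.2% and 85.6% of cases in the 0 h replicates and in 88.5% and 85.2% at 1 h, against 83.9% and 81.5% of all merged regions at 0 h and 81.5% and 77.3% at 1 h. The gained regions gave a difference of −0.0179 percentage points whose sign depended on the library left out (−1.66 to 1.63 points; exact permutation p = 1). Of the 2797 regions, 2281 (81.6%) had a peak in all 4 of these H3K27ac lists, against 91.7% of kept regions and 73.7% of all merged regions. Regions with an H3K27ac peak in both 1 h and neither 0 h list made up 0.858% of gained regions (24), against 0.585% of all IKZF1 regions. Kept regions carried H3K27ac in 96.6% and 95.8% of cases at 0 h and in 95.1% and 92.5% at 1 h, a fall of 2.42 percentage points with groups that did not overlap (exact permutation p = 0.33, adjusted p = 0.556).

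Lost regions carried an H3K27ac peak less often after induction. The share was 70.6% and 67.0% in the 0 h replicates, 66.4% and 55.1% at 30 min, 55.2% and 43.2% at 1 h, and 47.7% and 47.2% at 2 h. The groups at 0 h and 1 h did not overlap, and the mean fell by 19.6 percentage points (68.8% ± 2.57 against 49.2% ± 8.53, SD, n = 2; exact permutation p = 0.33, adjusted p = 0.467). Distal lost regions fell from 67.8% and 63.6% at 0 h to 49.4% and 37.7% at 1 h, and lost promoters from 79.5% and 77.7% to 73.5% and 60.2%. An H3K27ac peak in both 0 h and neither 1 h list was found at 74 lost regions (10.8%), against 2.1% of all IKZF1 regions and 49 kept regions (1.15%). The opposite pattern was found at 0 lost regions.

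The share of lost regions with H3K27ac, minus that of kept regions, went from −27.4 ± 2.0 percentage points before induction to −35.2 ± 7.0 after 30 min, −44.6 ± 6.70 after 1 h and −45.2 ± 0.373 after 2 h (± SD of 2 libraries). This trend was also tested because it was seen in the data. Its rho was −0.83 (exact permutation p = 0.0198, adjusted p = 0.0466 over 4 trends) and its r was −0.80 (exact permutation p = 0.0206, adjusted p = 0.0413), and r was −0.87 without the 2 farthest libraries. The adjusted p was above 0.05 without either 0 h or either 30 min library (0.133, 0.106, 0.102 and 0.0762 by the exact permutation test, with rho from −0.83 to −0.75), with a fold of at least 3 (0.0698), and with the replicate number as a block (0.0833). The labels do not say whether the IKZF1, CHD4 and H3K27ac libraries of a time shared chromatin or an input, and the part of a shared input in these changes was not tested.

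The mean fold rank of H3K27ac peaks at gained minus that at kept regions averaged −6.77 ± 0.336 percentiles before induction, −2.98 ± 0.070 after 30 min, −0.821 ± 0.551 after 1 h and −1.49 ± 0.0255 after 2 h (± SD of 2 libraries). The 0 h libraries lay below all 6 induced libraries. Spearman's rho was 0.78 (exact permutation p = 0.0349, adjusted p = 0.0524) and r was 0.77 (exact permutation p = 0.0341, adjusted p = 0.0512), with r = 0.98 without the 2 farthest libraries. By rho the trend missed the adjusted threshold in all 8 libraries and passed it with H3K27ac lists of equal length (rho = 0.78, exact permutation, adjusted p = 0.0349) and without 1 h replicate 1 or either 2 h replicate (rho = 0.86 in each).

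The gained regions with the highest fold ranks lay at promoters and at distal sites alike. The first lay in an intron of Vti1a, which encodes a SNARE protein of vesicle transport, on chromosome 19 from 55544533 to 55545466. Its fold was 10.2 and 12.4 in the 1 h replicates and 6.92 and 4.77 at 2 h, with a 30 min peak in replicate 2 alone (5.34). It had a CHD4 peak in both 1 h and neither 0 h list. The second covered the TSS of Cdk1, the kinase that drives entry into mitosis, on chromosome 10 from 69352332 to 69353619. Its fold was 5.03 and 4.24 after 30 min, 10.5 and 10.5 after 1 h and 7.79 and 12.2 after 2 h, and it was called in every induced library and in neither 0 h library. A region in an intron of Foxo3, a forkhead factor of the PI3K pathway, on chromosome 10 from 42220508 to 42220975, had a fold of 9.38 and 11.1 at 1 h and no peak at 30 min. It too had a CHD4 peak in both 1 h and neither 0 h list. The other 5 of the 8 had Endou, Panx1, Lin52, Snx6 and Tha1 as the nearest protein-coding gene, with a fold at 1 h between 8.77 and 12.1. All 8 were also called in both 2 h libraries. The Snx6 region had a CHD4 peak in both 1 h and neither 0 h list as well. The Cdk1, Endou and Tha1 regions had one in both 1 h lists and also in 1 of the 0 h lists. The Panx1 region had one in 1 of the 1 h lists alone, and the Lin52 region in no CHD4 list.

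The lost regions with the highest ranks had a fold at 0 h above that of any gained region at 1 h. The highest fold at gained regions was 12.6 and 12.4 in the 1 h replicates. These folds come from different libraries, each relative to its own background. The first lay between genes on chromosome 10 from 60273312 to 60274072, 3555 bp from a TSS of Psap, which encodes the precursor of the saposins of lysosomal lipid breakdown. Its fold was 16.4 and 19.9 at 0 h, and the only later call was 3.53 in 2 h replicate 2. The second lay in an intron of Ccdc138 on chromosome 10 from 58544156 to 58544839, had a fold of 14.2 and 21.0 at 0 h, and was called in no later library. The third covered a TSS of Ppme1, whose product removes a methyl group from phosphatase PP2A, with 14.9 and 15.4 at 0 h. The others lay in introns of St3gal3 and Slc44a1, at 12.7 to 17.4, and the Slc44a1 region was not lost when peaks were merged across gaps of up to 100 bp. The Psap, Ppme1, St3gal3 and Slc44a1 regions had an H3K27ac peak in all 8 H3K27ac lists. The Psap region had a CHD4 peak in 7 of the 8 CHD4 lists, both 1 h lists among them, and the Slc44a1 region in 6. The Ccdc138, Ppme1 and St3gal3 regions had a CHD4 peak in no list.

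The kept regions with the highest ranks had Cpped1, Cmc1, Chmp5, Atp13a2 and Rcc2 as the nearest protein-coding gene. Their fold was 20.2 to 40.4 at 0 h and 11.8 to 16.8 at 1 h, so the 1 h values lay below the 0 h values at each of the 5. The highest fold of any kept region was 43.7 and 45.9 in the 0 h replicates and 22.2 and 23.5 in the 1 h replicates. A fold is relative to its own library, so the amount bound was not compared. The Cpped1 region, 220400 bp from that gene and within an intron of Snx29, overlapped no H3K27ac peak in any of the 8 lists but a CHD4 peak in all 8 CHD4 lists. The printed sequence at its summit is the repeat.

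**Figure D4:**
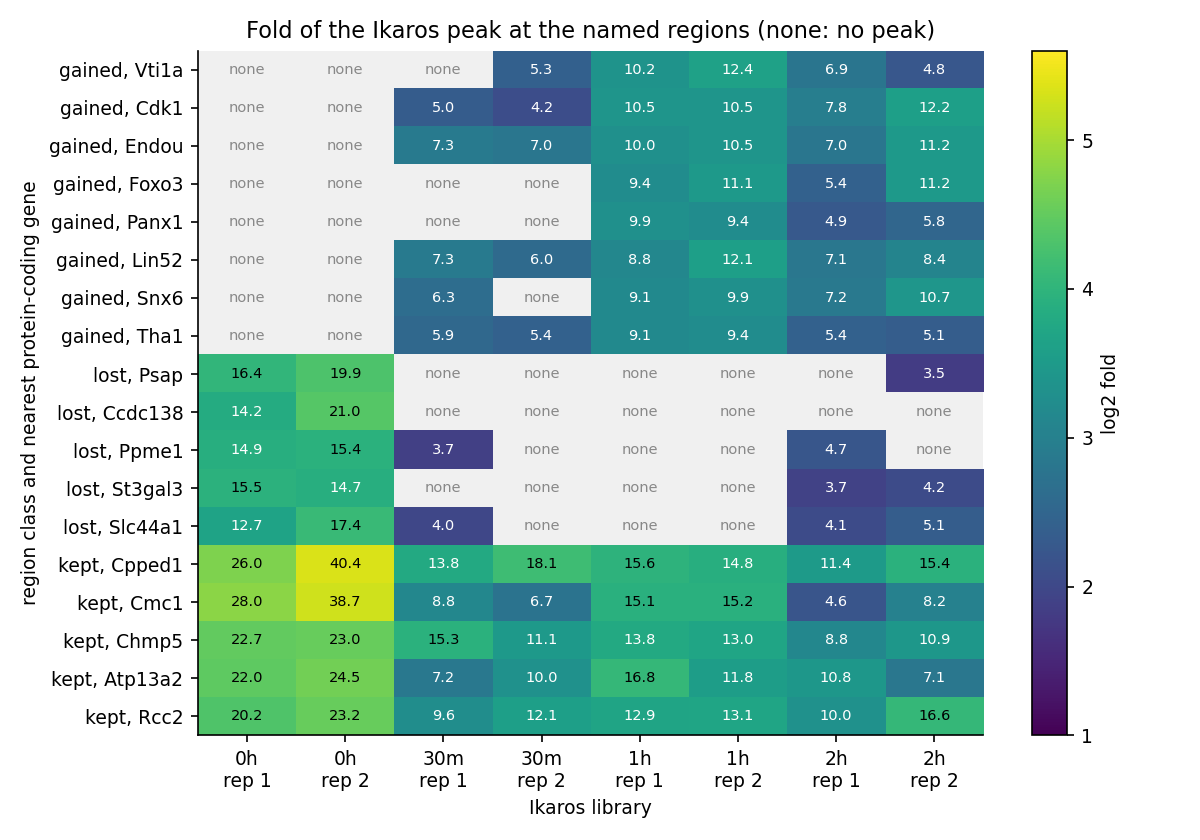
Fold of the IKZF1 peak (printed, and as log2 in colour) at the 8 gained, 5 lost and 5 kept regions of highest rank, by library, with the nearest protein-coding gene. Gained regions have no peak at 0 h and reach 12.4 at 1 h, lost regions have none at 1 h, and kept regions are highest at 0 h, at up to 40.4.

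Of 21911 protein-coding genes, 14.7% had a gained, 3.18% a lost and 20.4% a kept region within 20 kb of a TSS. Among the 9722 genes with an H3K27ac peak within 1 kb of a TSS in both 0 h lists the shares were 26.6%, 4.75% and 37.1%, and these are the nearer background for genes active in B3 cells. The pre-B label was borne out by the markers, since 13 of 14 pre-B markers had such a peak (Rag1 did not), against 3 of 10 T cell, 1 of 10 myeloid and 1 of 8 erythroid markers. Gained regions had 2343 nearest genes, of which 720 were also nearest to a kept region, 30.7% of the genes of gained and 22.9% of those of kept regions. Mef2c had the most gained regions as its nearest, 7, followed by Clic4, Foxo1 and Pde4d with 5 each.

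Of 17 genes that the study's text names among those repressed fast after induction, 12 (70.6%) had a kept region, 5 (29.4%) a gained region, 1 a lost region and 3 none. These are not all the genes it names as such, since Ccnb1 is counted here with the cell cycle genes and Hs3st3b1 is in no list. The study named them from RNA of the same cell system, and several of them for nearby enhancers that lost H3K27ac or as known IKZF1 targets, so their shares are no independent evidence of binding. The share with a gained region was near the 26.6% of marked genes, and the share with a kept region was above the 37.1%. The kept regions lay at Igll1 and Vpreb1, the surrogate light chain genes of the pre-B receptor, which have the same highest-ranked kept region, at Dntt, the template-free polymerase of V(D)J joining, and at Bcl11a, Endod1, Itga5, Gfra2, Myc, Plekho2, Lrrfip1, Serpinf1 and Gins2. At the Igll1 TSS the fold was 7.25 and 6.16 at 0 h and 12.2 and 12.4 at 1 h, whereas at Serpinf1 it was 27.3 and 20.1 at 0 h and 7.96 and 6.45 at 1 h. In fold, kept regions of this list thus moved in opposite directions. A fold is relative to the background of its own library, so this is no measure of the amount bound.

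The gained regions of these genes lay near Gins2, Ccnd2, Myc, Serpinf1 and Ccnd1. That near Gins2, a subunit of the GINS replication complex, lay on chromosome 8 from 120571270 to 120572122, with a fold of 8.24 and 6.04 at 1 h. Ccnd2 and Ccnd1, which encode D-type cyclins, had a gained but no kept region. The Ccnd2 region, on chromosome 6 from 127154598 to 127155173, outside Ccnd2 and 2405 bp from its TSS, had a fold of 5.40 and 4.02 at 1 h, was called in every 30 min and 2 h library, and carried an H3K27ac peak in both 0 h lists and neither 1 h list. Myc, a driver of growth and proliferation, had 3 gained regions, the highest-ranked 951 bp from its TSS on chromosome 15 from 61983674 to 61984440, with 7.67 and 2.75 at 1 h. The kept region of Myc lay beside it, from 61984733 to 61985997, and whether they are separate sites was not tested. The Serpinf1 and Ccnd1 regions were weaker, at 3.69 and 4.81 and at 3.40 and 4.41, and were called in 2 h replicate 2 alone among the other libraries. That of Serpinf1 began at 75416985 on chromosome 11, beside its kept region, which ended at 75416469. Gfra2 had the lost region (3.64 and 5.11 at 0 h), and Ramp1, Espnl and Hs3st2 had no region of any class within 20 kb.

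The B-lineage transcription factors had the highest share of genes with a gained region, 13 of 22 (59.1%), against 26.6% of marked genes. Of the 22, 15 had a kept and 5 a lost region. Genes with many start sites are searched over more sequence, and this was not adjusted for. The 4 highest-ranked gained regions of this list lay near Ebf1, Runx1, Mef2c and Pou2f1. That in an intron of Ebf1, a pioneer factor of the B lineage, on chromosome 11 from 44892657 to 44894423, had a fold of 7.26 and 7.56 at 1 h and a CHD4 peak in every 0 h and 1 h list. That of Runx1, on chromosome 16 from 92807725 to 92808218, had 5.97 and 8.04 at 1 h and was called in no 30 min or 2 h library. Mef2c, a MADS-box factor of B-cell progenitors, had 4 gained and 0 kept regions within 20 kb, the highest-ranked with a fold of 7.42 and 5.76. At Pou2f1, an octamer factor, the gained region covered a TSS (6.09 and 6.50) and a lost region lay 6801 bp from a TSS (6.25 and 10.8 at 0 h).

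The other lists are given by the same counts, beside the 26.6%, 37.1% and 4.75% of marked genes with a gained, kept or lost region. Of 15 genes of the IL-7 receptor and STAT5 pathway, which sustains pre-B cell growth, 7 (46.7%) had a gained, 9 a kept and 2 a lost region. Their highest-ranked gained regions lay near Socs3, Bcl2l1, Jak1 and Bcl2, with a fold at 1 h between 3.59 and 6.19. Of 20 genes of pre-B and B cell receptor signalling, 8 (40%) had a gained, 13 a kept and 0 a lost region. The first of these were Pik3cd, Fyn, Cd22 and Pik3ap1, and the region at the Cd22 TSS, on chromosome 7 from 30879038 to 30879542, had a fold of 5.11 and 6.75 at 1 h and a CHD4 peak in both 1 h and neither 0 h list. Cd22 is an inhibitory coreceptor of B cells. Of 11 BCL2 family genes, 5 (45.5%) had a gained and 5 a kept region, with the highest-ranked gained regions near Pmaip1, Mcl1, Bid and Bbc3. Of 22 cell cycle genes, 6 (27.3%) had a gained region, with Cdk1, E2f3, Cdc25a and Cdkn1b ranked highest, and 8 a kept region. Of 14 NuRD subunit genes, 4 (28.6%) had a gained region (Mta1, Mbd2, Gatad2a and Mta2) and 4 a kept region, Chd4 among them. The last 2 shares were near the 26.6% of marked genes. Of 15 adhesion and migration genes, 3 (20%) had a gained, 7 a kept and 4 (26.7%) a lost region. Of 24 cytosolic ribosomal protein genes, 5 (20.8%) had a gained, 8 a kept and 2 a lost region. Of the 5 Ikaros family genes, Ikzf3 and Ikzf4 had a gained region and Ikzf1, Ikzf3 and Ikzf4 a kept one. In lists of equal length the counts of genes with a gained region fell, to 7 B-lineage factors, 6 receptor signalling genes, 3 each of the IL-7 pathway, cell cycle and ribosomal genes, 1 each of the fast-repressed, Ikaros family, adhesion and BCL2 family genes, and 0 NuRD genes, while the share among genes with promoter H3K27ac fell from 26.6% to 10.8%.

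**Figure D5:**
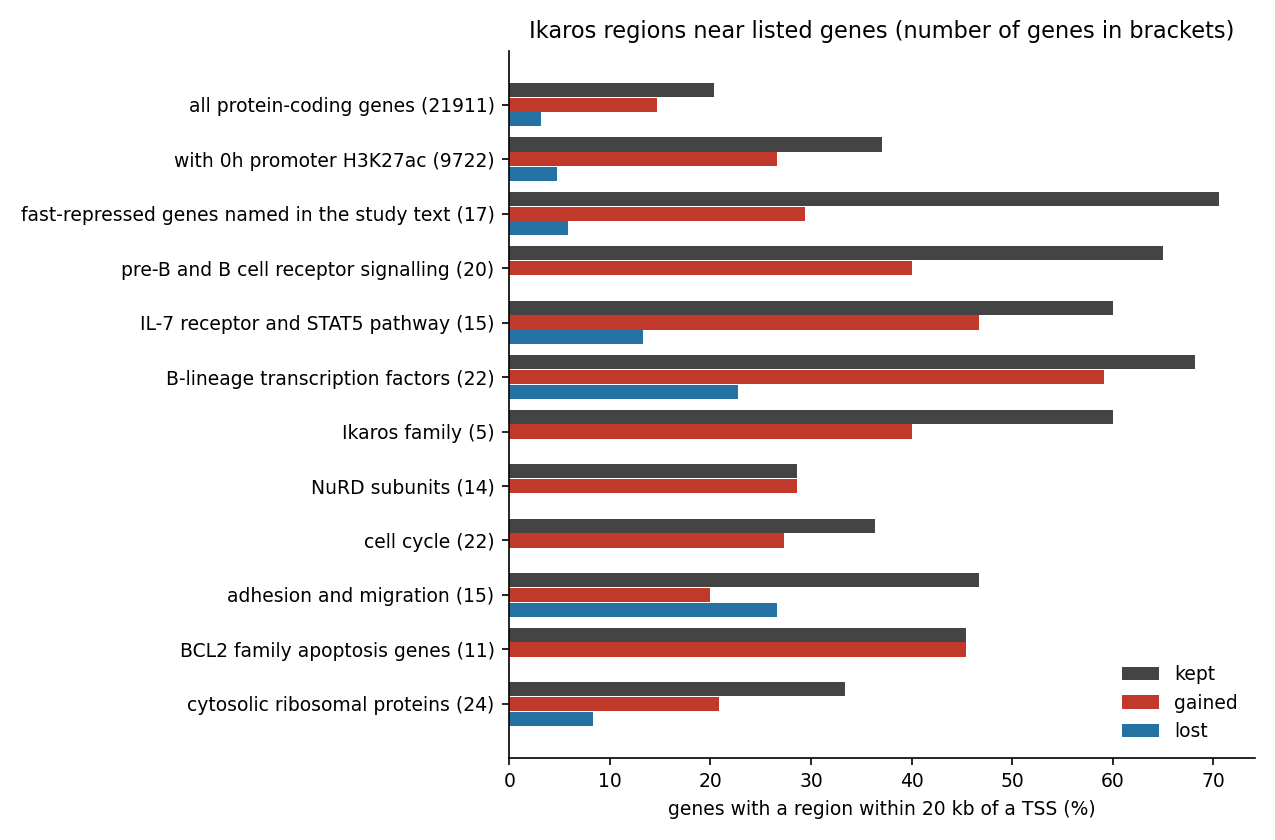
Share of genes (%) with a kept, gained or lost region within 20 kb of a TSS, for all protein-coding genes, those with H3K27ac at the promoter at 0 h and the 10 gene lists, with the number of genes in brackets. Gained regions reach 59.1% of the B-lineage transcription factors, against 26.6% of genes with promoter H3K27ac.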

How the data were processed

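Peak lists of 24 ChIP-seq libraries of B3 cells were used, 8 for each of IKZF1, CHD4 and H3K27ac, and the 8 input libraries had no list. The submitters' processing notes name Bowtie2 2.4.2, Picard 2.23.7, MACS2 2.2.7.1 and deepTools 3.5.0, and the paper's methods give the mm10 genome and peak calling on paired fragments, in broad mode for CHD4, and 1 list was deposited for each library. In each list the authors deposited a score, the fold (a ratio of pileup to local background), the −log10 p-value and the −log10 q-value per peak, and narrow lists also hold the summit offset in bp. Reads and read counts were not analysed here. Groups came from the sample labels.

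The 4 IKZF1 lists were merged where peaks shared at least 1 bp. A region counted as called in any list with a peak overlapping it by at least 1 bp, so wider regions can meet more peaks. Distances used GENCODE start sites on GRCm38, and a gene was assigned a region within 20 kb of any of its start sites. Coverage was read from the fold and the p-value of each IKZF1 peak and depends on the calling model. Words were counted within 50 bp of the strongest summit and 400 to 500 bp away. Shares of regions were compared over libraries by exact two-sided permutation tests, adjusted by the Benjamini-Hochberg method within the 5 planned differences and the 3 planned trends, or within 7 and 4 once those on lost regions, added after seeing the data, were included. The 5 include the IKZF1 peak number, whose p is not reported because it rests on the lists that define the classes. The other tests took their values from the CHD4 and H3K27ac lists, over classes that the IKZF1 calls define. The merging, word counts and classes were tested on simulated data. Python 3.11.15, numpy 2.4.6, pandas 2.3.3, scipy 1.17.1 and matplotlib 3.10.9 were used.

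The members and gene lists were chosen with earlier results of these data known. The regions named were the 8 gained, 5 lost and 5 kept with the highest mean fold rank, and in each gene list up to 4 genes whose gained region ranked highest, with every gene of the fast-repressed list accounted for. A few other genes were named after their values were seen. Sequences were printed for regions that overlap no untranslated region. Alternatives were stricter peaks, lists of equal length, other merging and overlap rules, a wider promoter, other windows and control words, the replicate number as a block, and each library left out.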

Additional observations from a re-analysis of the deposited data

How the results depend on the processing

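With IKZF1 lists of equal length, gained regions numbered 1140 and lost regions 1234, promoters made up 49.4% of gained regions and the core word density at gained summits was 0.905 per 100 bp. Stricter peaks, other merging, adjacent peaks joined (chosen after seeing the data: 2796, 687 and 4256 gained, lost and kept) left the 3 counts within 1.5 times, and a 50% overlap could not change them, since each peak lies within its merged region. Leaving out 1 library asks for fewer calls, so by construction gained regions then numbered 3521 to 7257 (7257 and 5136 without 1 h replicates 1 and 2), lost 1092 to 1868 (1868, 1243, 1092 and 1188 without 0 h replicates 1 and 2 and 1 h replicates 1 and 2) and kept 4610 to 5610. Promoter shares then were 48.7% to 57.3% of gained, 27.4% to 32.0% of lost and 51.3% to 55.3% of kept regions, and core densities 0.592 to 0.867, 1.89 to 2.18 and 1.61 to 1.91 at gained, lost and kept summits. Promoters within 3 kb held 64.1%, 37.8% and 62.8%. Control words gave 0.276, 0.922 and 0.579, and a window of 25 bp each side gave 2.37 at lost summits.

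The 1 h minus 0 h difference in H3K27ac at gained regions turned to 0.161 percentage points with a fold of at least 3, to 1.32 without 0 h replicate 1 and to 1.63 without 1 h replicate 2 (range −1.66 to 1.63). That in CHD4 at kept regions turned to −4.91 without 0 h replicate 1 (range −4.91 to 21.0). Leaving out 1 library gave 5.51 to 23.0 for CHD4 at gained regions, −23.2 to −4.43 for CHD4 and −25.7 to −13.6 for H3K27ac at lost regions, −3.71 to −1.13 for H3K27ac at kept regions and 3773 to 6200 for the IKZF1 peak number.

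With lists of equal length rho was 0.88 for the CHD4 share at gained regions (adjusted p = 0.0155), 0.98 for gained minus kept (adjusted p = 0.00238) and 0.78 for the H3K27ac rank (adjusted p = 0.0349), by exact permutation tests. Leaving out 1 library gave rho of 0.51 to 0.83, 0.68 to 0.90 and 0.68 to 0.86, and −0.92 to −0.75 for H3K27ac at lost regions. The last was −0.83 (exact permutation, adjusted p = 0.0698) with a fold of at least 3. Whether replicate numbers pair libraries was checked by correlating, over regions, the difference in fold rank between replicates at 1 time with that at another, and r was 0.0073 to 0.049 for IKZF1, −0.036 to 0.056 for CHD4 and 0.024 to 0.073 for H3K27ac over 6 pairs of times each, none over 0.1. H3K27ac replicate 1 had the longer list at every time. With the replicate number as a block rho was 0.80, 0.70 and 0.80 for the first 3 trends, and −0.90 (adjusted p = 0.0833) for H3K27ac at lost regions, and the 1 h minus 0 h differences kept their values. The causes were not tested. Of the 10 gene list counts, 9 moved by over 1.5 times with lists of equal length. Lists hold called peaks alone, so a level below the calling threshold cannot be seen, and the exact permutation test of 2 libraries against 2 cannot pass a threshold, so it says nothing on the stability of those differences. CHD4 with a −log10 q of at least 3 differed by 4.20 points at gained and −1.45 at lost regions.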
